A study of Drosophila melanogaster with 10 samples.

Results

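Programmed cell death in Drosophila runs through a short cascade of proteases, and 8 genes of it are described here in SL2 cells after RNA interference against MBD-R2. The genes were listed by name (Dronc, Dark, Dcp-1, Drice, Diap1, rpr, hid and grim) and matched to probe sets by current symbol or synonym. Of the 8, 4 had a probe set that names them alone: Dronc, Dark, Dcp-1 and grim, with 5 probe sets in all because Dark has 2. They stand among 11983 genes of the array with such a probe set. Drice, Diap1, rpr and hid were not analysed here. Where a gene had more than 1 probe set, the one with the higher mean across all 10 arrays stands for it, and the other probe set of Dark is described beside it.

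SL2 is an established male cell line derived from Drosophila embryos. Cells were soaked without serum for 1 hour with 10 µg of double-stranded RNA (dsRNA), and RNA was taken after culture for 7 days at 26 °C. The groups were cells given construct M1 against MBD-R2 (3 arrays), cells given construct M2 against MBD-R2 (3 arrays), cells with no dsRNA (1 array) and cells given dsRNA against GST, the control (3 arrays). MBD-R2 belongs to the NSL complex, through which the histone acetyltransferase MOF acts at many promoters. Its own transcript was not analysed here, so the depth of the knockdown is not known. The replicates are biological by the study's own account, and they come from 1 cell line. In bulk RNA a change in the share of cells that hold a transcript and a change in its level per cell cannot be told apart.

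In the intrinsic pathway of the fly the adaptor Dark, a relative of mammalian Apaf-1, assembles with the initiator caspase Dronc into the apoptosome. Active Dronc cleaves the effector caspases Drice and Dcp-1, which dismantle the cell. The inhibitor of apoptosis protein Diap1 holds these caspases in check, and the death inducers rpr, hid and grim bind Diap1 and release them. Caspases are made as inactive precursors, so a transcript level is not a measure of their activity.

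Values are log2 expression values with a floor of 2.22, the lowest in the table, and on each array 50.5% to 53.1% of probe sets were no more than 0.1 above that floor. Of 10 hemocyte markers, which mark the blood cell character known for this line, 10 had a mean of at least 4, with single array values from 8.97 to 15.00. Over 4 neuron markers the summed log2 value was 18.83 to 20.88 on 6 knockdown arrays and 16.72 to 17.90 on 3 GST arrays. These markers were split. The neuronal genes elav (5.84 to 8.85) and brp (5.59 to 7.59) lay well above the floor on all arrays. In contrast, nSyb was at the floor and para lay between 2.37 and 2.42. After knockdown elav had 1.06 log2 (adjusted p = 0.229 in limma). Of the markers tested, 3 passed in limma after knockdown, namely the neuronal gene brp as higher (1.18 log2, adjusted p = 0.000631), the hemocyte receptor gene NimC1 as higher (2.20, 0.000633) and the germ line gene aub as lower (-0.91, 0.0382). Summed values overlapped between knockdown and GST arrays for muscle (9.91 to 14.82 against 9.55 to 10.85), germ line (14.40 to 20.54 against 13.16 to 14.72) and hemocyte markers (124.6 to 131.4 against 126.0 to 128.0), and no fat body or gut marker reached a mean of 4. The part of these markers in the results below was not tested. The hybridisation spike-in controls had a median of 10.99 to 12.33 on the knockdown arrays, and of 10.66, 13.12 and 10.84 on GST replicates 1, 2 and 3. Replicate 3 of each dsRNA group stood apart from replicates 1 and 2 across the whole table, and is given apart below.

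Transcripts of the apoptosome and of 1 effector caspase had higher mean levels after MBD-R2 knockdown than after GST dsRNA. The mean was 1.61-fold higher for Dronc, 1.57-fold for Dark and 1.40-fold for Dcp-1, whereas grim lay at the lowest values of the array in every group. None of the 3 measurable genes passed limma's test across all arrays, in which 25.3% of 7298 probe sets passed, 7.85% as higher and 17.4% as lower. With the replicate number as a block all 3 passed as higher, in a fit in which 43.7% of probe sets passed, 18% as higher and 25.7% as lower. The block takes up what arrays of the same number have in common, and the values of single arrays below show how much that is for each gene.

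The initiator caspase Dronc had log2 values of 9.67, 9.84 and 9.35 on the M1 arrays (replicates 1, 2 and 3), 9.73, 9.86 and 9.39 on the M2 arrays, and 9.39, 9.02 and 8.45 on the GST arrays. Replicate 3 was the lowest array of each group, and the replicate 3 knockdown arrays overlapped GST replicate 1. The mean was 9.62 ± 0.25 with M1, 9.66 ± 0.24 with M2 and 8.95 ± 0.47 with GST (SD, n = 3 each). The log2 fold change of M1 and M2 against GST was 0.69 ± 0.23 (SE, 95% interval 0.16 to 1.22), and limma's adjusted p was 0.0625. With the replicate block its SE was 0.14 and the adjusted p in limma 0.00651. Within replicate numbers the difference from GST ran from 0.29 to 0.94 over 6 array pairs, and in replicate 3 alone it was 0.92, against 0.58 in replicates 1 and 2.

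The adaptor gene Dark, which brings Dronc molecules together, had on its first probe set values of 8.49, 8.31 and 8.90 with M1, 8.28, 8.18 and 8.92 with M2, and 7.62, 7.63 and 8.34 with GST. Here replicate 3 was the highest array of each group, and GST replicate 3 lay above 3 of the 6 knockdown arrays, so the groups overlapped. The means were 8.57 ± 0.30 with M1, 8.46 ± 0.40 with M2 and 7.86 ± 0.41 with GST (SD, n = 3 each). The fold change of 0.65 ± 0.25 (log2, SE, 95% interval 0.07 to 1.22) had an adjusted p of 0.0984 in limma, and of 0.00235 with the replicate block. In replicate 3 the difference was 0.56, against 0.69 in replicates 1 and 2, while the level of the GST arrays spanned 7.62 to 8.34.

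The second probe set of Dark gave another picture of the levels. It had 6.41, 6.79 and 4.96 with M1, 6.43, 6.52 and 4.91 with M2, and 6.21, 5.58 and 3.23 with GST. Replicate 3 was the lowest array of each group on this probe set and the highest on the first, so the probe sets of this gene disagree on how replicate 3 differs from the others. GST replicate 3 lay 2.66 log2 units below the mean of GST replicates 1 and 2 on the second probe set, and 0.72 above it on the first. Against GST, however, the knockdown arrays were higher on both. The second probe set had a log2 fold change of 0.99 ± 0.73 (SE, 95% interval -0.68 to 2.67, adjusted p = 0.382 in limma), with an adjusted p of 0.0179 with the replicate block. Its difference was 1.70 in replicate 3 and 0.64 in replicates 1 and 2. A single array set much of the unblocked value, which was 0.11 without GST replicate 3 (adjusted p = 0.919 in limma) and 1.60 without GST replicate 1 (0.216). Without GST replicate 3 the low replicate 3 knockdown arrays have no GST array of their number, so the value of 0.11 compares unlike sets of arrays. The fit on replicates 1 and 2 alone, which leaves replicate 3 out of every group, gave 0.64 (adjusted p = 0.063 in limma).

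The effector caspase gene Dcp-1, which encodes a protease that cuts cell proteins late in the cascade, had 6.98, 7.26 and 6.78 with M1, 7.26, 7.01 and 6.75 with M2, and 6.52, 6.47 and 6.58 with GST. All 6 knockdown arrays lay above all 3 GST arrays, as did 10.7% of the probe sets tested. The means were 7.00 ± 0.24 with M1, 7.01 ± 0.25 with M2 and 6.52 ± 0.06 with GST (SD, n = 3 each). The log2 fold change was 0.48 ± 0.16 (SE, 95% interval 0.11 to 0.85, adjusted p = 0.061 in limma), with an adjusted p of 0.0294 with the replicate block. The difference was smallest in replicate 3, at 0.19, against 0.63 in replicates 1 and 2. Unlike Dronc and Dark, the GST arrays of Dcp-1 hardly varied, and the spread lay among the knockdown arrays.

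The death inducer gene grim had 2.22 on each of the 6 knockdown arrays and on the array without dsRNA, and 2.22, 2.25 and 2.25 on the GST arrays. Its highest value lay 0.03 log2 units above the lowest value in the table. It did not reach the mean of 4 required for testing, so a change of grim was not detectable on these arrays. The grim transcript was not detected above the lowest array values in any group, which leaves its level below that point unknown.

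**Figure D1:**
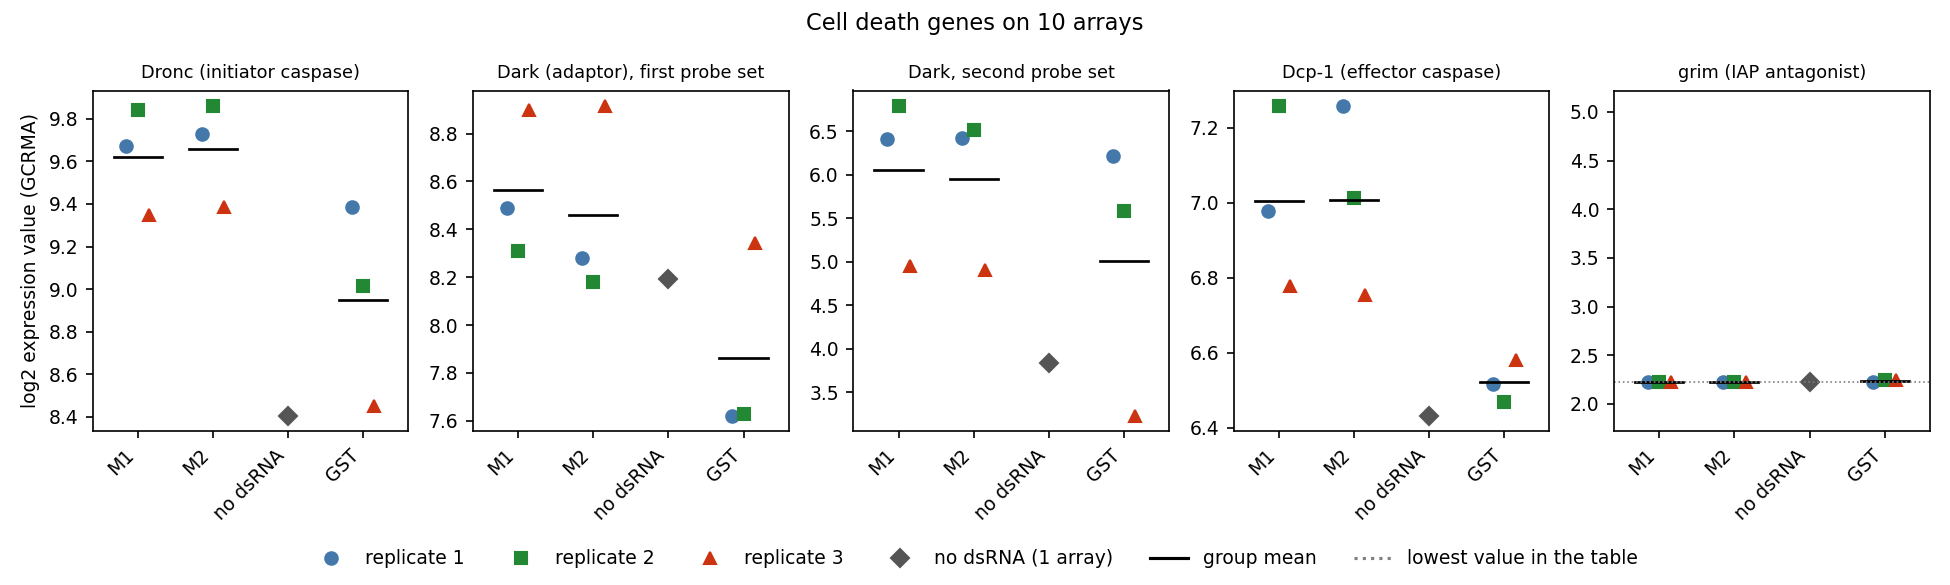
The log2 expression value (vertical axis, a separate range for each panel) of each measured cell death gene is plotted for M1, M2, the array without dsRNA and GST, with a symbol for each replicate number and a bar at the mean of each group of 3. Dronc, Dark and Dcp-1 lie higher with M1 and M2, replicate 3 (triangles) departs downward for Dronc and the second probe set of Dark and upward for its first, and grim lies at 2.22 to 2.25 throughout.

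Replicate 3 was compared with replicates 1 and 2 because these arrays differ across the whole table. For Dronc the shift of replicate 3 was -0.41 log2 units in knockdown arrays and -0.75 in GST arrays. For Dark it was 0.59 in knockdown and 0.72 in GST arrays on the first probe set, and -1.60 in knockdown and -2.66 in GST arrays on the second. For both genes these shifts ran the same way in knockdown and GST arrays. For Dcp-1 they were -0.36 in knockdown and 0.09 in GST arrays. The difference between the knockdown effect in replicate 3 and that in replicates 1 and 2 was tested as an interaction, which 5.51% of probe sets passed in limma (2.63% as higher and 2.88% as lower). It was 0.34 ± 0.24 for Dronc (SE, adjusted p = 0.458 in limma), -0.13 ± 0.17 for Dark (0.72), 1.06 ± 0.37 for its second probe set (0.159) and -0.45 ± 0.22 for Dcp-1 (0.293). No member passed. The effect within replicate 3, which holds 1 GST array, was not tested by itself.

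All 6 differences between arrays of the same number were above 0 for Dronc, for Dcp-1 and for both probe sets of Dark, as they were for 21.1% of the probe sets tested, while all 6 were below 0 for 30.8%. The 6 differences share 3 GST arrays and are not independent. In a fit on replicates 1 and 2 alone, Dronc (adjusted p = 0.0255), Dark (0.00427) and Dcp-1 (0.0141) passed limma's test as higher, while the second probe set of Dark had an adjusted p of 0.063. That fit called 38.9% of probe sets, 16.5% as higher. In single fits that left out an array, Dronc passed without GST replicate 1 (0.91 log2, adjusted p = 0.0357 in limma), Dark without GST replicate 3 (0.89, 0.0444), and Dcp-1 without M1 replicate 3 (0.54, 0.047) or M2 replicate 3 (0.55, 0.0386). These 4 fits called 5.86%, 6.55%, 7.21% and 7.37% of probe sets as higher, in that order. They hold no block. With 1 array left out the share of replicate 3 arrays differs between knockdown and GST, so the shift of replicate 3 enters the fold changes. In the fit without GST replicate 3 the fold change of Dronc was 0.44, more than 1.5 times below the value from all arrays. In replicates 1 and 2 alone, where replicate 3 is left out of every group, it was 0.58.

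**Figure D2:**
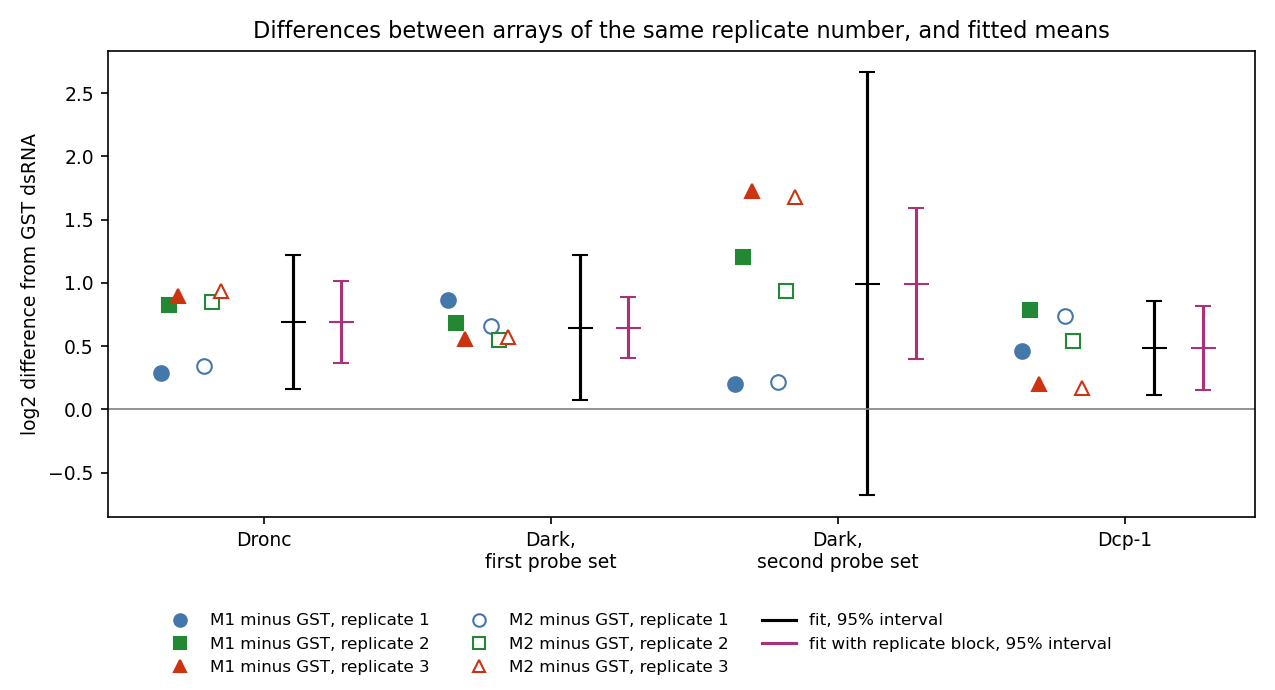
For Dronc, the first and second probe sets of Dark, and Dcp-1, the log2 difference from the GST array of the same replicate number (vertical axis) is plotted for M1 (filled) and M2 (open), beside the fitted mean with its 95% interval without a block (black) and with the replicate number as a block (purple). All 24 points lie above 0, and the interval of the second probe set of Dark narrows from -0.68 to 2.67 to 0.39 to 1.59 with the block.

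In 1 of the 5 scalings run Dcp-1 (-0.12 log2) and Dark (-0.05) lay below 0 and Dronc at 0.14, namely after centring on the spike-in controls with GST replicate 2 left out, which changes the scaling and the arrays together. That setting moved the median of all 7298 probe sets to -0.65, against -0.03 with the deposited values. Relative to the median the values were 0.52 for Dcp-1, 0.59 for Dark and 0.79 for Dronc, against 0.51, 0.67 and 0.72 with the deposited values. Spike-in centring with all arrays moved the median to 0.18 and gave 0.69 for Dcp-1, 0.86 for Dark and 0.90 for Dronc. None of them passed in limma (adjusted p = 1 for each), in a fit that called 3.08% of probe sets. After quantile normalisation Dcp-1 (0.78, adjusted p = 0.0101 in limma) and Dark (0.81, 0.049) passed, in a fit that called 26.4% of probe sets, 11.2% as higher. Median centring gave calls for Dcp-1 (0.55, 0.0324) and Dronc (0.76, 0.0447), in a fit that called 25.4%, 9.47% as higher. In these 5 scalings each of the 3 genes lay above the median change of all probe sets, and in the 4 that keep all arrays each lay above 0. Median and spike-in centring subtract 1 value per array, so with all arrays kept they cannot change the distance of a gene from the median change. These settings are therefore no separate checks of that distance. After quantile normalisation, which can change it, the distance was 0.77 for Dcp-1, 0.80 for Dark and 0.69 for Dronc.

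M1 and M2 are different constructs against the same transcript, and were also tested one by one. Dronc differed from GST by 0.67 ± 0.27 with M1 and 0.71 ± 0.27 with M2 (log2, SE). For Dark the differences were 0.70 ± 0.29 and 0.59 ± 0.29, and for Dcp-1 0.48 ± 0.19 and 0.49 ± 0.19. No member passed with either construct in limma, with adjusted p-values from 0.11 to 0.207, while 20.4% of probe sets passed with M1 (5.67% as higher, 14.7% as lower) and 18.8% with M2 (5.32% as higher, 13.5% as lower). With the replicate block Dronc and Dark passed with each construct in limma (adjusted p = 0.0154 and 0.00377 with M1, 0.0129 and 0.00796 with M2), and Dcp-1 had 0.055 with M1 and 0.0553 with M2. The blocked fits called 37.4% of probe sets with M1 (14.4% as higher) and 36.3% with M2 (14.5% as higher). These comparisons share their GST arrays.

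Set directly against each other, M2 and M1 differed by 0.04 log2 units for Dronc (95% interval -0.58 to 0.65), by -0.11 for Dark (-0.77 to 0.56), by -0.10 for its second probe set (-2.04 to 1.83) and by 0.00 for Dcp-1 (-0.42 to 0.43). Limma called 0% of probe sets in this comparison, with 19 of 7298 at an unadjusted p under 0.05. These intervals reach to about the size of the knockdown effect or, for the second probe set of Dark, beyond it, so smaller differences between the constructs were not detectable with 3 arrays each. With the replicate block the intervals were narrower, at -0.34 to 0.41 for Dronc, -0.38 to 0.17 for Dark and -0.38 to 0.39 for Dcp-1.

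The array without dsRNA gives the level of each gene in cells that saw no dsRNA. Dronc had 8.40 on it, Dark 8.19 on the first and 3.84 on the second probe set, and Dcp-1 6.43. Dronc and Dcp-1 thus lay below every dsRNA array, and Dark lay between the GST arrays on both probe sets. The differences from the GST mean were -0.55 ± 0.38 for Dronc, 0.33 ± 0.41 for Dark and -0.09 ± 0.26 for Dcp-1 (SE, 1 array against 3), with adjusted p-values of 0.924 to 0.949 in limma, which called 0% of probe sets and had 68 at an unadjusted p under 0.05. Set against GST replicate 3 alone, the array differed by -0.05 for Dronc, by -0.15 for Dark, by 0.61 for the second probe set of Dark and by -0.15 for Dcp-1. In order of level, M2 and M1 came highest for Dronc and Dcp-1, followed by GST and the array without dsRNA, and M1 and M2 were not separated beyond their spread. For the first probe set of Dark the order was M1, M2, no dsRNA and GST, and for the second it was M1, M2, GST and no dsRNA. On both, the array without dsRNA lay inside the range of GST.

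Genes next to the members on the chromosome gave a mixed picture. Dcp-1 lies on arm 2R and overlaps pita, a gene for a zinc finger protein, whose probe set fell by 0.59 ± 0.14 (log2, SE, adjusted p = 0.0153 in limma), opposite in sign to Dcp-1. The next gene at higher coordinates, Rrp4, had -0.94 ± 0.40 (adjusted p = 0.126 in limma, and 0.00102 with the replicate block). Dronc lies on arm 3L beside CG6674, which fell by 2.17 ± 0.14 (adjusted p = 4.05e-05 in limma). Paip1, beside Dark on arm 2R, had 0.14 ± 0.13 (adjusted p = 0.514 in limma). levy, below Dcp-1, had 0.11 ± 0.17 (0.712). These neighbours were named for their position and after their values were seen. Which gene's transcript a probe set within an overlap reads was not tested.

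By correlation of log2 values over the 10 arrays, the gene most like Dronc among 4026 named candidates was ATP7 (Pearson r = 0.99), that most like Dark was Smg6 (r = 0.99) and that most like Dcp-1 was mib2 (r = 0.96). The arrays share the split between replicate 3 and the rest, and these values describe the arrays used here. The correlation includes the knockdown arrays, so the direction of these genes after knockdown follows from how they were chosen.

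Other genes of cell death were counted from lists of 56 entries, of which 47 had a probe set and 34 passed the filter on low values. Of these 34, 2 fell and 0 rose in limma's test, and their median log2 fold change was 0.03. Over all 5906 genes tested, 1175 fell and 436 rose, with a median of -0.07. With the replicate block 7 of the 34 fell and 3 rose, against 1691 that fell and 986 that rose of the 5906.

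EndoG, a mitochondrial nuclease released during cell death, fell by 1.07 ± 0.14 (log2, SE, adjusted p = 0.000976 in limma). It had 6.81, 6.78 and 7.12 with M1, 6.93, 6.94 and 7.10 with M2, and 7.89, 7.94 and 8.21 with GST. All knockdown arrays lay below all GST arrays, as for 21.7% of probe sets. Det, the fly relative of the inhibitor of apoptosis protein survivin, fell by 0.79 ± 0.16 (adjusted p = 0.00901 in limma). Its call was lost after spike-in centring (-0.58, adjusted p = 1), as was that of EndoG (-0.86, adjusted p = 1). That fit gave both genes an SE of 0.77 and called 3.08% of probe sets. With GST replicate 2 also left out, EndoG passed as lower (-1.68, adjusted p = 0.0301 in limma) and Det did not pass (-1.41, 0.0823). The fit without GST replicate 2 called 15.2% of probe sets, 13.6% as lower.

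The caspases Strica (-0.33 ± 0.28, adjusted p = 0.457 in limma) and Dredd (-0.16 ± 0.16, 0.535) did not pass, with Strica at -0.15 without GST replicate 1 and at -0.10 in replicates 1 and 2 alone, and the caspase gene Damm lay between 2.22 and 2.32 on all arrays. The inhibitors Diap2 (0.05 ± 0.27) and Bruce (0.09 ± 0.35) did not pass either. The death inducer skl, a neighbour of rpr and grim in function and position, lay between 2.22 and 2.94. HtrA2, a mitochondrial protease that can cleave Diap1, had 3.06, 3.05 and 2.85 with M1, 2.99, 2.77 and 2.77 with M2, 3.29 without dsRNA, and 5.54, 4.83 and 3.99 with GST. Its mean of 3.52 kept it out of the tests, and without the filter it passed as lower (adjusted p = 0.0172 in limma). That fit called 7.53% of 18769 probe sets, 5.75% as lower. The GST arrays of HtrA2 spanned 3.99 to 5.54, and the array without dsRNA lay below all of them, nearer to the knockdown arrays. The knockdown values of HtrA2 lie near the floor, so no fold is given. Dredd, Damm, Diap2, Bruce, skl and HtrA2 were named after their values were seen.

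Of the signalling genes, lok, the checkpoint kinase Chk2 of the fly (-0.42 ± 0.14, adjusted p = 0.0707 in limma), morgue, which promotes the loss of Diap1 (-0.45 ± 0.28, 0.308), and JMJD6, once named a receptor for dying cells (0.44 ± 0.18, 0.122), had the smallest p-value of their lists, in which no gene passed. With the replicate block lok (adjusted p = 0.0275) and morgue (0.047) passed as lower in limma, and JMJD6 had 0.0536. Without GST replicate 3 and with no block, so with replicate 3 left only among the knockdown arrays, morgue had -0.10 and JMJD6 0.28. In replicates 1 and 2 alone morgue had -0.27 (adjusted p = 0.136 in limma). The remaining genes that passed with the replicate block but not in the fit without it were Debcl, Traf4 and slpr as higher and Acn, egr and wgn as lower. They were named after their values were seen. Traf4 had the largest change of the listed genes tested, at 1.32 ± 0.51 (adjusted p = 0.0987 in limma, and 0.00148 with the block). Its GST arrays spanned 7.63 to 9.67. Debcl also passed with no block when the filter on low values was dropped (0.29, adjusted p = 0.0342 in limma). That fit called 1.78% of probe sets as higher.

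**Figure D3:**
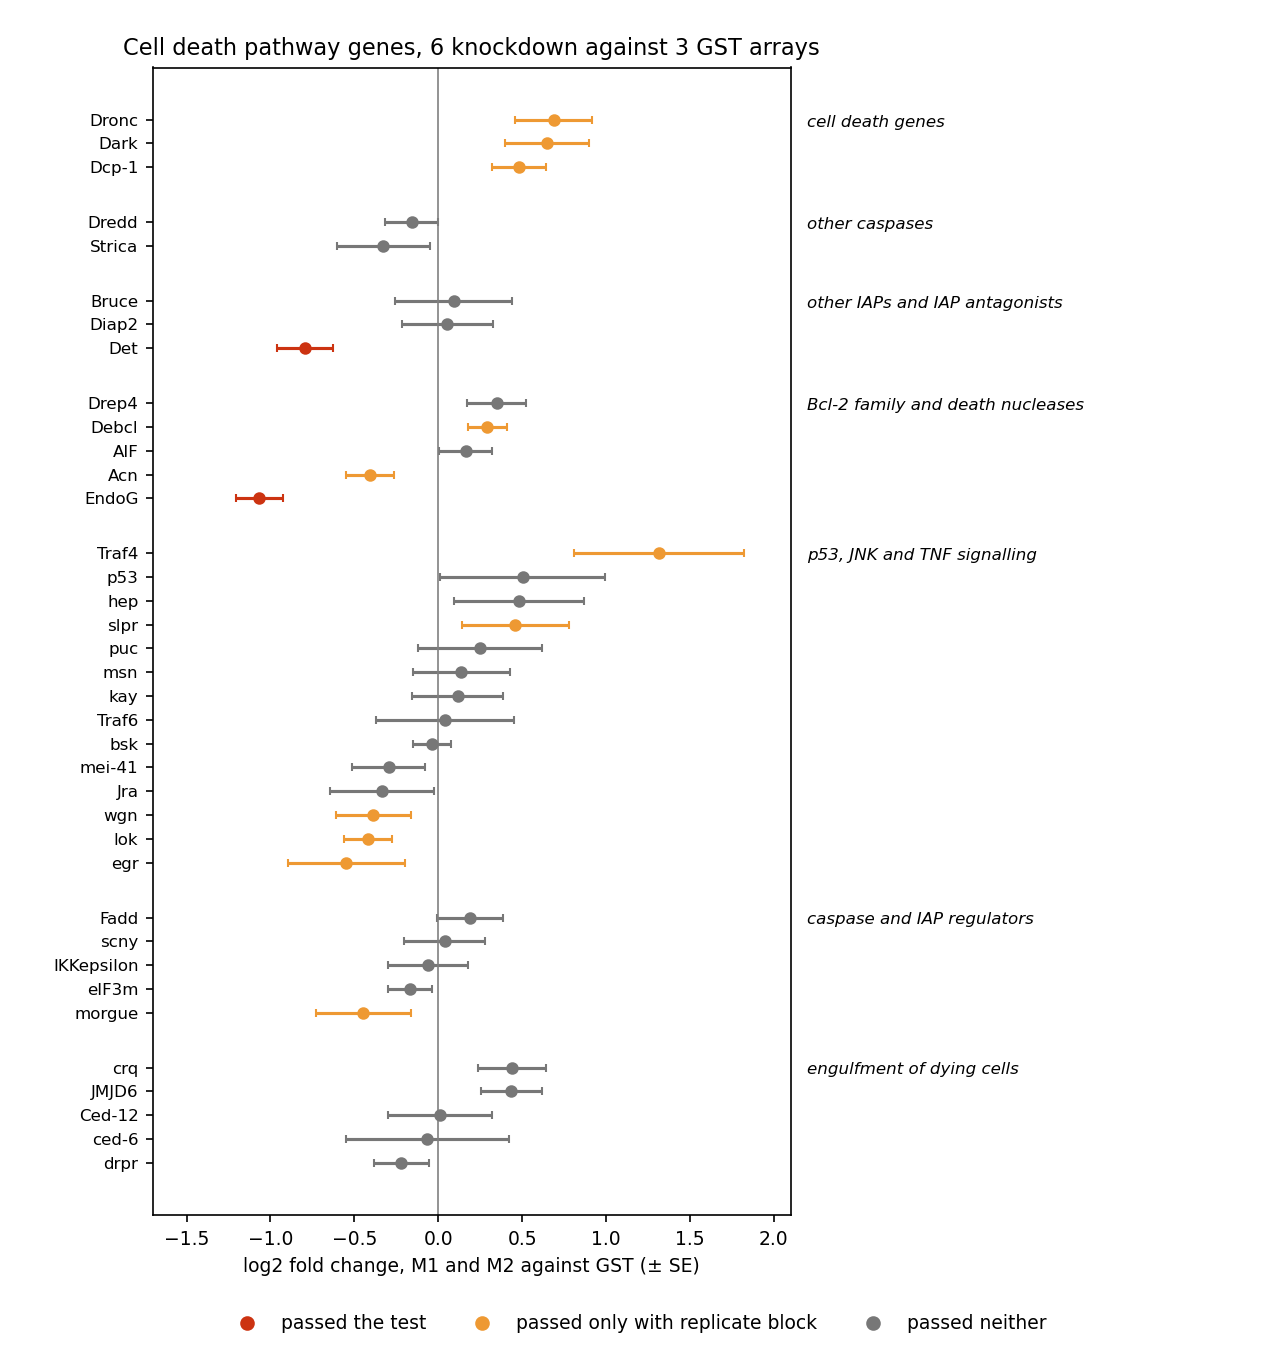
The log2 fold change of M1 and M2 against GST (horizontal axis, bars are SE) is plotted for the 3 tested members and the 34 other cell death genes tested, grouped by list and coloured by whether they passed limma's test, passed only with the replicate number as a block, or passed neither. Dronc, Dark and Dcp-1 lie between 0.48 and 0.69, while EndoG at -1.07 and Det at -0.79 are the genes that passed without the block. The largest change plotted is that of Traf4 at 1.32, which passed only with the block.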

How the data were processed

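The authors deposited log2 values of 10 Affymetrix arrays (1 per sample), made with GCRMA per the submitters' processing notes; the version of GCRMA is not given in the sources used here. Groups follow the source names in the labels; the third M2 array is titled M3 but its source name gives M2. Of 18952 probe sets, 183 are controls, 13647 name 1 gene, 402 name several and 4720 are unnamed here. Symbols, chromosome arms and neighbours come from RefSeq Release 6 by Entrez identifier.

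After removal of probe sets with a mean under 4, 7298 were fitted in limma 3.58.1 (R 4.3.3) with lmFit and eBayes on 4 group means of 10 arrays, using two-sided tests adjusted by Benjamini-Hochberg across these 7298 and a threshold of 0.05. The interaction with replicate 3 used the 9 dsRNA arrays. Same-numbered arrays deviated together from their group means (r = 0.34 to 0.93 over 9 pairs). The correlation was 0.55 to 0.75 over 6 pairs with other numbers among replicates 1 and 2. It was -0.89 to -0.54 over 12 pairs between replicate 3 and the rest. Deviations from a mean of 3 arrays sum to 0, so a replicate 3 set apart raises r among replicates 1 and 2 and lowers it across the sets. These values therefore cannot separate pairing by number from the split between replicate 3 and the rest. The main fit has no block, and the replicate number entered only the blocked fits. Blocked fits leave out the array without dsRNA.

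On simulated data for M1 and M2 against GST (7298 probe sets), 44 of 100 probe sets changed by 1 log2 unit and 80 of 100 changed by 2 were recovered. Of the unchanged probe sets 9 were called. Noise was drawn independently for each array, so a shift shared by the replicate 3 arrays was not simulated. Changes of the size seen for the members (0.48 to 0.69) were not simulated either, so these rates do not apply to them. The number of arrays limits the precision.

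The members, lists and alternatives were chosen with earlier results of these data known. Named genes were all members, up to 4 genes of each other list past the test or else the 1 with the smallest p, and per tested member the most correlated gene. Marker entries not matched to a probe set of their own were left out, among them nos, which matches several genes. That left 4 of 5 neuron, 4 of 5 muscle, 3 of 5 fat body, 3 of 5 germ line and 4 of 5 gut markers. Of the male dosage compensation markers 1 of 3 was left. Other settings of scaling, filter, variance model and arrays were also run.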

Additional observations from a re-analysis of the deposited data

Results flagged for a closer look

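The knockdown effect on p53, the transcription factor that induces death genes after DNA damage, differed between replicate 3 and replicates 1 and 2 by 1.41 ± 0.26 log2 units (SE, adjusted p = 0.0456, limma's interaction test, which 5.51% of probe sets passed). Its log2 values were 7.94, 8.12 and 9.67 with M1, 8.22, 8.09 and 9.81 with M2, and 8.27, 7.85 and 8.30 with GST. Both knockdown arrays of replicate 3 lay 1.38 and 1.52 above the GST array of that replicate, while the differences in replicates 1 and 2 lay between -0.33 and 0.27. A second probe set of p53 lay between 2.25 and 2.95 on all arrays and gives no check.

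Jra, the fly Jun protein that acts below JNK, differed the other way, by -1.25 ± 0.20 (adjusted p = 0.0358, same test). It had 10.06, 10.11 and 10.25 with M1, 10.04, 10.24 and 10.30 with M2, and 9.92, 10.15 and 11.44 with GST, so the difference lies in GST replicate 3, which is high, as is the array without dsRNA at 11.15. The effect was -1.17 in replicate 3 and 0.08 in replicates 1 and 2. For both genes replicate 3 holds a single GST array. For p53 that array (8.30) lay near GST replicate 1 (8.27) and the array without dsRNA (8.36), and the difference lies in the replicate 3 knockdown arrays, which are high. Both genes were named after their values were seen. Both calls were lost in 7 of the 8 fits that left out 1 array and were kept without GST replicate 2. Over these 8 fits the adjusted p in limma ran from 0.0423 to 0.172 for p53 and from 0.0447 to 0.144 for Jra, and the values from 1.20 to 1.63 and from -1.36 to -1.13. Without M2 replicate 1 or M2 replicate 2 limma's interaction test called 0 probe sets, with 1234 and 1223 at an unadjusted p under 0.05. Spike-in centring gave 0.78 for p53 and -1.88 for Jra (adjusted p = 0.999 each in limma), in a fit that called 0 probe sets. The mean of both probe sets of p53 gave 0.36 (adjusted p = 0.297 in limma).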

How the results depend on the processing

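Members past the test in M1 and M2 against GST numbered 0 of 3. They numbered 3 with the replicate block, the array set block (replicate 3 against replicates 1 and 2), replicates 1 and 2 alone or array weights, and 2 with quantile normalisation, median centring or pooled controls (GST and no dsRNA together), all as higher. Leaving out single arrays gave 0 to 1 (1 without GST replicate 1, GST replicate 3, M1 replicate 3 or M2 replicate 3). For M1 and for M2 against GST the count was 0, but 2 with the replicate block, 3 with the array set block, replicates 1 and 2 alone or array weights, and 1 with quantile normalisation or pooled controls; single arrays left out gave 0. Other pathway genes past the test numbered 2, but 10 with the replicate block or the array set block, 7 in replicates 1 and 2 alone, 6 with array weights, 4 with no filter or pooled controls, 3 with quantile normalisation, 1 with spike-in centring without GST 2, and 0 with spike-in centring; single arrays left out gave 2 to 4 (4 without GST replicate 1). M2 against M1, no dsRNA against GST and the interaction gave 0 members under each alternative run.

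After spike-in centring without GST replicate 2 the sign turned for M1 and M2 against GST in Dcp-1 (-0.12) and Dark (-0.0511), for M1 against GST in Dcp-1 (-0.35), Dronc (-0.10) and Dark (-0.22), and for the interaction in Dcp-1 (0.17) and Dark (0.46). The interaction also turned for Dronc with spike-in centring (-0.29) and for Dark with the mean of its probe sets (0.47). The cause was not tested. Over all probe sets 1843 were called, 68.9% of them lower, against 3189 with the replicate block, 3541 with the array set block, 2838 in replicates 1 and 2 alone, 2675 with array weights, 2339 with pooled controls, 1855 with median centring, 1414 with no filter, 1927 after quantile normalisation (57.4% lower), 225 with spike-in centring (48.9%) and 1110 when that was done without GST replicate 2 (89.2%). The interaction without GST replicate 3 could not be fitted. Values near the lowest of the table limit what can be seen of grim and HtrA2.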
